A study of Mus musculus with 4 samples.

Results

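The genes of the eukaryotic translation initiation factors were taken as the genes whose symbol starts with Eif followed by a digit from 1 to 6, which gave 56 of the 24026 genes with RPKM values in F123-ESCs. F123-ESCs are a male hybrid embryonic stem cell line, each autosome of which comes from an S129 mother and a CAST father, so that reads over strain SNPs can be told apart by allele. RNAseq was performed on 4 libraries of untreated F123-ESCs, genotype S129/CAST, which is the only group, and the comparison available in it is that of the 2 alleles within each library. The cells had been kept in medium with 1000 U/ml LIF on inactivated feeder fibroblasts, moved to feeder-free plates for the last passages, and harvested after about 48 h. RPKM stands for reads per kilobase of gene length and per fixed number of reads. Here it rests only on reads that cover a SNP, so that the level of a gene also depends on how many SNPs its transcript holds, which was not tested. The labels do not say that the 4 libraries came from separate cultures, and the p-values therefore measure the spread between these libraries, which may be technical.

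Initiation starts with a complex of eIF2, GTP and initiator tRNA, which binds the small ribosomal subunit together with eIF1, eIF1A and eIF3. eIF4F, made of the cap-binding eIF4E, the scaffold eIF4G and the helicase eIF4A, brings this complex to the capped end of an mRNA, from which it scans to a start codon. eIF5 and eIF5B act in start codon recognition and joining of the large subunit, eIF2B exchanges the nucleotide on eIF2, eIF2 alpha kinases block this exchange under stress, and 4E-binding proteins hold eIF4E back when mTOR is inactive.

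The reads behind the values could be recovered from the steps between them. Totals per library and allele ranged from 16716726 to 28772352 reads, and 1 read over a length of 1000 bp was worth 0.0348 to 0.0598 RPKM. All 6 ESC markers examined had at least 1 RPKM, with a summed level of 757 to 949 RPKM over the libraries. Feeder fibroblast markers summed to 178 to 223 RPKM and 5 of 6 had at least 1 RPKM, with Col1a2 at 166 ± 17.5 (SD, n = 4) as the highest and Lum at 0.0462 ± 0.0231 (SD, n = 4). Primitive endoderm markers summed to 43.3 to 50.0 RPKM, 3 of 4 of them with at least 1 RPKM. Most of this sum was Dab2 at 44.2 RPKM, with Gata6 at 1.40, Gata4 at 1.03 and Sox17 at 0.326 RPKM. Neural markers summed to 68.2 to 85.1 RPKM, 1 of 3 with at least 1 RPKM. Most of that sum was Nes at 76.2 RPKM, with Sox1 at 0.835 and Pax6 at 0.413 RPKM. The part of other cell types in the values of the initiation factor genes was not tested.

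The promoters of the initiation factor genes were rich in CpG. RefSeq windows (GRCm38.p6) of 250 bases before the first listed start were at hand for 44 of the 56 genes and for 27025 genes in all. The median count of CpG in a window was 18.5 for the initiation factor genes (range 3 to 42) and 6 for all genes, and the median GC content was 59.0% and 52.0%. The letters GGGCGG (GC box, either strand) occurred in 31 of the 44 windows (70.5%; 32.9% of all windows), CCGGAAG (ETS, either strand) in 10 (22.7%; 7.05% of all) and CACGTG (E-box, a palindrome) in 7 (15.9%; 6.05% of all). CCAAT (either strand) was found in 12 windows (27.3%; 34.5% of all) and TATAAA (either strand) in 4 (9.09%; 13.0% of all). None of these letters overlapped another motif of the list in the windows shown here. Such matches are descriptions of sequence and were not tested for binding. Genes of like level or like GC content were not set beside the initiation factor genes, so these traits may not be particular to them.

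The windows of 3 genes on which the allele comparison turns are given in the 5′ to 3′ direction of the gene, as in the reference strain and hence without the alleles' SNPs. Capitals mark the letters of the E-box, the GC box and the CCAAT box on either strand. Eif4a1 (chr11:69672424-69672673, minus strand) is the initiation factor gene with the largest difference between autosomal alleles. Eif4g1 (chr16:20672477-20672726, plus strand) and Eif2b5 (chr16:20498567-20498816, plus strand) are neighbours, 159 kb apart, with unlike allele differences. The window of Eif4g1 lies inside the gene as annotated in GENCODE M21, since RefSeq lists a later start.
Eif4a1: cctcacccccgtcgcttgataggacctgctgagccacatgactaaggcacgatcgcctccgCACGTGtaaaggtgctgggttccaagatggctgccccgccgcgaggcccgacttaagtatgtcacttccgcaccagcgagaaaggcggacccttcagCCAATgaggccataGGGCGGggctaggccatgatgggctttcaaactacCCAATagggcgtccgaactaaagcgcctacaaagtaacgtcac
Eif4g1: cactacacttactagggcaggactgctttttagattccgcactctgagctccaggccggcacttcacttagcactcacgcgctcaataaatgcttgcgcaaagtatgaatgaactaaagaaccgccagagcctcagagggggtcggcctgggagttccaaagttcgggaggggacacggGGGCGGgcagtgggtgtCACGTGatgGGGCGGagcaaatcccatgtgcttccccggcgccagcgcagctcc
Eif2b5: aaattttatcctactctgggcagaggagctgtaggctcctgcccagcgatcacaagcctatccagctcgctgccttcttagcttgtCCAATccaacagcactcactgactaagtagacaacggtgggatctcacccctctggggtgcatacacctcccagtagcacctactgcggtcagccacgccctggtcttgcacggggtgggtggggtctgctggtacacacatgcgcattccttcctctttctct
The window of Eif4a1 holds 1 E-box, 1 GC box and 2 CCAAT boxes, that of Eif4g1 holds 1 E-box and 2 GC boxes, and that of Eif2b5 holds 1 CCAAT box.

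Initiation factor genes were among the more highly expressed genes of F123-ESCs. Their median level, as the mean of both alleles (S129 alone on chromosome X), was 33.7 RPKM, beside 1.00 RPKM over all genes. At least 1 RPKM was found for 49 of 56 (50.0% of all genes), at least 10 RPKM for 34 (24.8% of all genes) and at least 100 RPKM for 19 (4.29% of all genes). The deposited RPKM often used the length of a single transcript, and the exons annotated for 18 of 52 genes with reads covered at least 2 times this length. With the length of all exons together, the median was 21.4 RPKM beside 0.673 RPKM over the genes with such a value, and 12 genes kept at least 100 RPKM (2.13% of all).

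**Figure D1:**
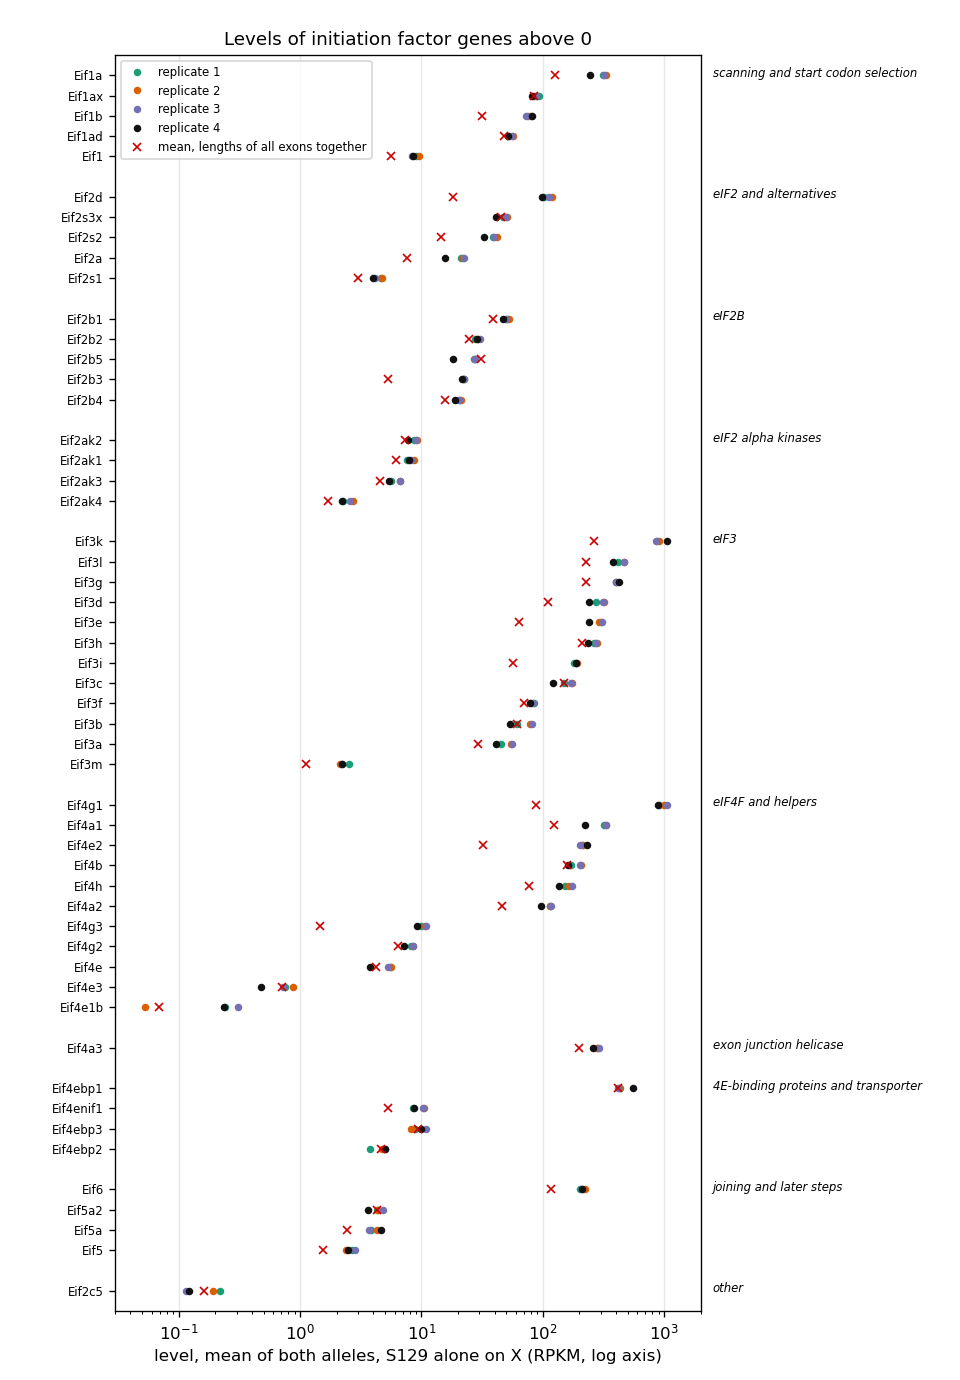
Level of each of the 52 initiation factor genes above 0 (RPKM, log axis), ordered by role. Points are the 4 libraries, and red crosses are the means with the length of all annotated exons in place of the deposited length. Eif4g1 and Eif3k lie near 1000 RPKM, while the crosses put Eif4g1 at 88.0 RPKM and Eif3k at 264 RPKM.

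Of the factors for scanning and start codon selection, Eif1a had 302 ± 39.4 RPKM and its X-linked counterpart Eif1ax 86.8 ± 5.28 (SD, n = 4 each). Both encode eIF1A, which keeps the small subunit open for scanning. The level of Eif1ax is that of S129 alone and that of Eif1a the mean of both alleles. Eif1, the gene of the factor that rejects wrong start codons, had 8.93, 9.52, 8.36 and 8.48 RPKM in replicates 1 to 4, far below its paralog Eif1b with 79.4, 75.7, 73.0 and 80.9 RPKM. The values of the 2 genes did not overlap. Eif1ad, which encodes a protein with an eIF1A-like domain, had 54.4 ± 2.49 RPKM (SD, n = 4).

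The 3 subunits of eIF2 were unlike in their deposited levels. For the X-linked Eif2s3x this is the level of S129 alone, and for Eif2s1 and Eif2s2 the mean of both alleles. Eif2s1, the alpha subunit that the kinases phosphorylate, had 4.36 ± 0.387 RPKM, Eif2s2, the beta subunit, 38.2 ± 3.67 RPKM, and the X-linked Eif2s3x, the gamma subunit, 47.1 ± 4.17 RPKM (SD, n = 4 each). Its Y-linked copy Eif2s3y was listed at 0 in all columns. As the values rest only on reads over SNPs, no absence of expression can be read from this zero. Eif2d and Eif2a, whose products can deliver initiator tRNA without eIF2, had 108 ± 9.63 and 20.4 ± 3.15 RPKM (SD, n = 4 each). The 5 genes of eIF2B, Eif2b1 to Eif2b5, lay closer together, from 20.2 RPKM for Eif2b4 to 49.9 RPKM for Eif2b1. The 4 kinase genes lay lower. Eif2ak2, which encodes PKR, had 8.65 ± 0.605 RPKM, Eif2ak1, which encodes HRI, 8.13 ± 0.490, Eif2ak3, which encodes PERK, 6.09 ± 0.676, and Eif2ak4, which encodes GCN2, 2.44 ± 0.259 (SD, n = 4 each).

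Of the 14 genes of eIF3, the scaffold on the small subunit, 12 had at least 1 RPKM. Eif3k had 872, 900, 862 and 1045 RPKM in replicates 1 to 4, Eif3l 433 ± 40.6 and Eif3g 405 ± 11.4 (SD, n = 4 each). Eif3d, Eif3e, Eif3h, Eif3i and Eif3c ranged from 154 to 285 RPKM, and Eif3f, Eif3b and Eif3a from 49.0 to 81.2 RPKM. Eif3m stood apart with 2.28 ± 0.165 RPKM (SD, n = 4), from 47 to 95 reads per allele and library. The near-identical genes Eif3j1 and Eif3j2 were listed at 0 in all columns, as was Eif5b (15.7% of all genes were listed at 0). The values rest only on reads over SNPs, so no absence of expression can be read from the zeros of these 3 genes.

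Within eIF4F, the scaffold gene Eif4g1 had the highest deposited level of all initiation factor genes, at 905, 997, 1056 and 888 RPKM in replicates 1 to 4. Its RPKM used a transcript of 668 bp, whereas all its exons together cover 7301 bp, which gave 88.0 RPKM in place of 961 RPKM. Eif4g2, a relative without the eIF4E-binding part, had 8.14 ± 0.618 RPKM and Eif4g3 had 10.2 ± 0.775 RPKM (SD, n = 4 each). Of the helicase genes, Eif4a1 had 302 ± 54.4 RPKM and Eif4a2 111 ± 9.46 RPKM, and the helicase cofactor genes Eif4b and Eif4h had 185 ± 22.6 and 157 ± 16.8 RPKM (SD, n = 4 each). Eif4a3, whose helicase belongs to the exon junction complex, had 277 ± 12.0 RPKM (SD, n = 4).

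The cap-binding genes were spread widely. Eif4e2 (4EHP, a cap-binding repressor) had 215 ± 12.1 RPKM, the canonical Eif4e 5.05 ± 0.855, Eif4e3 0.706 ± 0.167 and the oocyte gene Eif4e1b 0.209 ± 0.109 (SD, n = 4 each). Eif4e1b rested on 29 reads in all, with 0 to 10 per allele and library. Among the regulators of eIF4E, Eif4ebp1 had 434, 425, 417 and 557 RPKM in replicates 1 to 4, and the other 2 binding protein genes were far lower, Eif4ebp2 with 4.64 ± 0.573 and Eif4ebp3 with 9.45 ± 1.17 (SD, n = 4 each). Eif4enif1, which encodes the eIF4E transporter, had 9.50 ± 1.10 RPKM (SD, n = 4).

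Of the factors for subunit joining and later steps, Eif6, which keeps the large subunit from joining early, had 211 ± 7.07 RPKM (SD, n = 4). Eif5, the gene of the GTPase activator of eIF2, had 2.70, 2.39, 2.85 and 2.46 RPKM in replicates 1 to 4. Eif5a and Eif5a2, whose hypusinated products act mainly in elongation, had 4.12 ± 0.446 and 4.27 ± 0.480 RPKM (SD, n = 4 each). The rule also matched Eif2c5 (chrX:140776235-140796880), annotated as a lincRNA, with 23 reads in all and 0.163 ± 0.0524 RPKM (SD, n = 4). Many of these genes have processed copies elsewhere in the genome. Whether reads were divided with such copies was not tested. In GENCODE M21, exons of 10 of the 56 genes share bases with another gene on the same strand and exons of 14 with a gene on the opposite strand. The sources used here do not say whether reads were counted by strand, so values of these genes are uncertain to that extent.

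Levels within pairs of paralogs were compared per library for 8 pairs with values. The level of the X-linked Eif1ax is that of S129 alone, whereas that of Eif1a is the mean of both alleles. The fold between these 2 genes is thus one per allele and not one of the sum of both alleles. Each level also depends on the SNPs of its transcript, which are the same in every library. Neither the direction over libraries nor the test used here can tell SNP content from expression, so the folds describe reads over SNPs. Eif1b was 8.67-fold above Eif1, Eif1a 3.45-fold above Eif1ax, Eif4a1 2.70-fold above Eif4a2, Eif4e2 42.2-fold above Eif4e, Eif4e 6.44-fold above Eif4e3, Eif4g1 93.1-fold above Eif4g3, and Eif4ebp1 96.5-fold above Eif4ebp2, on the log2(RPKM+0.1) scale. The direction was the same in 4 of 4 libraries for these 7 pairs (exact two-sided permutation of signs, p = 0.13, which is the lowest value possible with 4 libraries, adjusted p = 0.14 over the 8 pairs). The deposited levels of Eif5a and Eif5a2 had a log2 difference of -0.051 ± 0.30 (SD, n = 4; exact sign-flip permutation test, p = 0.63), which was 0.057 without replicate 3. With the length of all exons together, this difference was -0.78 ± 0.30 (SD, n = 4), so that Eif5a2 was 1.72-fold above Eif5a (exact sign-flip permutation test, p = 0.13, the lowest value possible). The size of this difference thus depends on the length used, and neither length accounts for the SNPs of the 2 transcripts. With the same lengths, Eif1b was 5.58-fold above Eif1, Eif1a 1.48-fold above Eif1ax, Eif4e2 7.62-fold above Eif4e and Eif4g1 56.1-fold above Eif4g3. The other 3 pairs changed less, to 2.67-fold for Eif4a1 over Eif4a2, 5.37-fold for Eif4e over Eif4e3 and 87.8-fold for Eif4ebp1 over Eif4ebp2. For Eif2s3x and Eif2s3y and for Eif3j1 and Eif3j2 no fold can be given, because at least 1 gene of the pair is listed at 0.

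**Figure D2:**
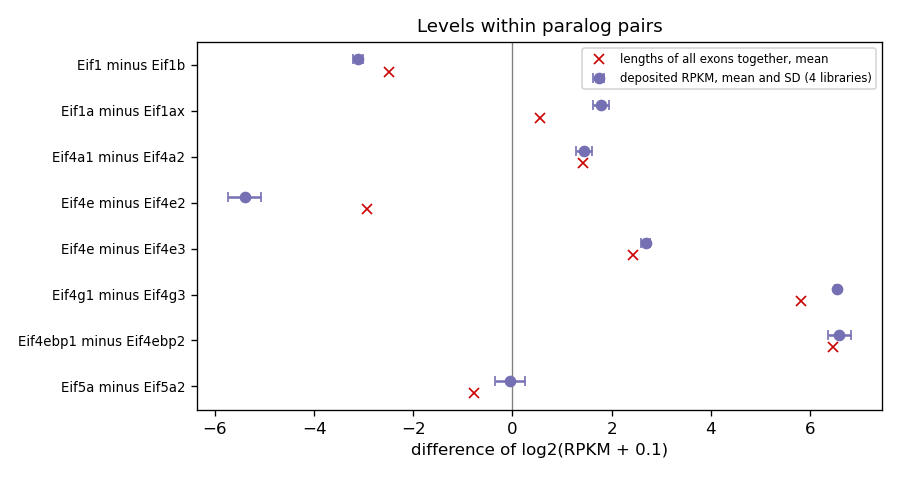
Difference in level within 8 pairs of paralogs on the log2(RPKM+0.1) scale. Points are means with the SD over 4 libraries for the deposited values, and red crosses are means with the length of all annotated exons. The difference between Eif4e and Eif4e2 shrinks from -5.40 to -2.93 with the other lengths, and that between Eif5a and Eif5a2 goes from -0.051 to -0.78.

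The alleles of the initiation factor genes differed about as often as those of other genes, and mostly by little. Of the 48 autosomal initiation factor genes tested, 30 differed between S129 and CAST (limma with Benjamini-Hochberg adjustment, adjusted p under 0.05), beside 61.4% of the autosomal genes. S129 was higher for 18 of them (28.9% of the autosomal genes) and CAST for 12 (32.5%). A difference of at least 1.5-fold was found for 8 (25.0% of the autosomal genes). Of these, Eif4a1, Eif4a2, Eif2s2, Eif4e3, Eif1 and Eif4g1 were higher on S129 (12.1%), and Eif4e and Eif2a on CAST (12.8%). The median size of the log2 difference was 0.21 over the 48 genes and 0.29 over the 12869 autosomal genes. The values of the 2 alleles did not overlap for 19 of the 48 genes (43.6% of the autosomal genes). With both X-linked genes tested, 20 genes had S129 and 12 had CAST higher (31.4% and 31.3% of all genes tested). The CAST count was 7, 6 and 7 when replicates 1, 2 and 3 were left out in turn. Over the 12869 autosomal genes, the calls with CAST higher then numbered 3489, 3379 and 3415, in place of 4180. The CAST count of the initiation factor genes also depends on the scaling. When the autosomal genes of both alleles were set to the same sum, which moved the median difference of the autosomal genes from -0.021 to 0.080, 25 initiation factor genes had S129 and 4 had CAST higher. With this scaling S129 was higher in 60.3% of the calls over all autosomal genes in place of 47.1%. With the autosomal median difference set to 0, 21 initiation factor genes had S129 and 9 had CAST higher. Over all autosomal genes S129 and CAST were then higher in 3930 calls each.

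**Figure D3:**
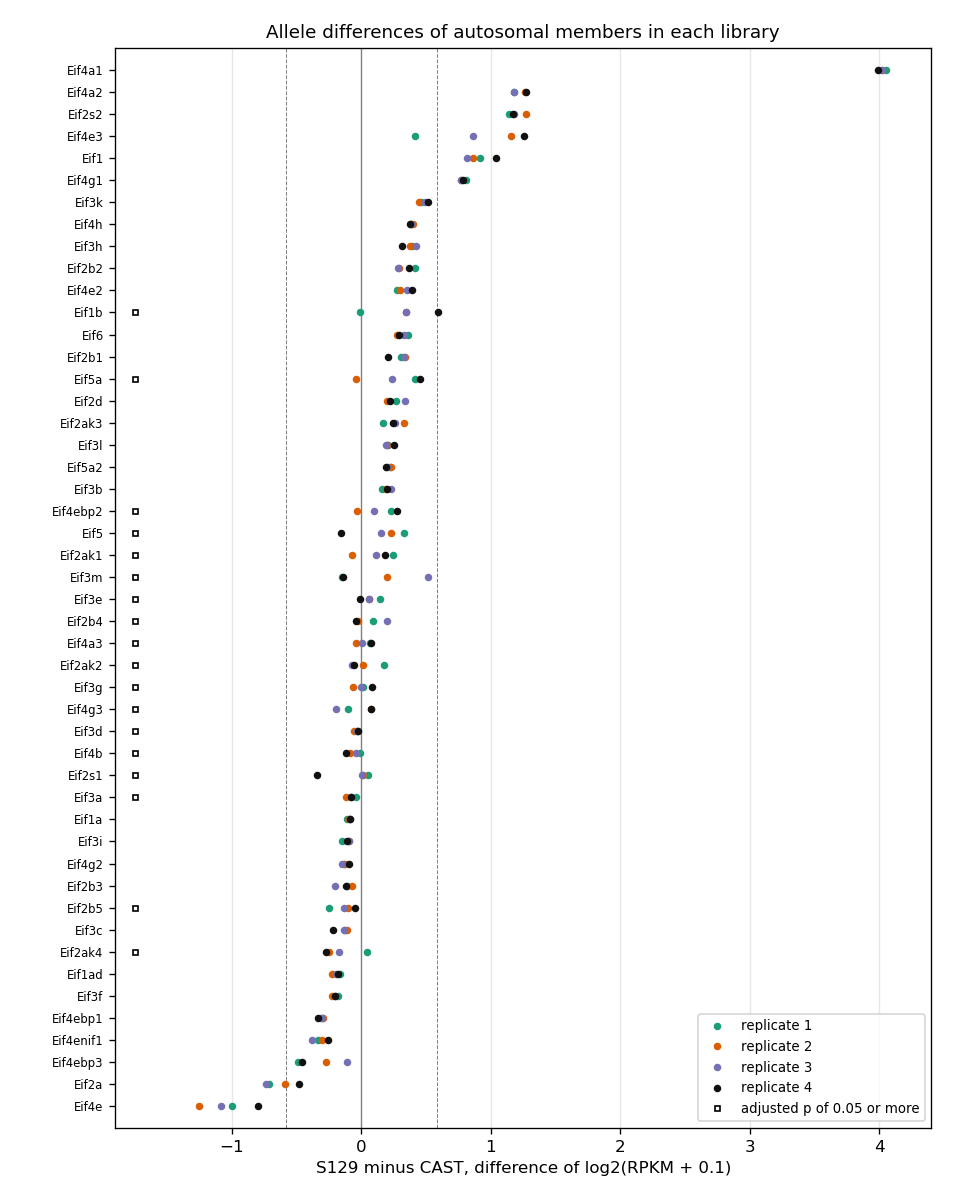
Difference between the alleles (S129 minus CAST, log2(RPKM+0.1)) of the 48 autosomal initiation factor genes tested, each with its 4 libraries as points. Dashed lines mark 1.5-fold, and open squares at the left mark genes with an adjusted p of 0.05 or more. The points of Eif4a1 lie near 4, far from all others, which range from -1.25 to 1.27.

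Eif4a1 (ENSMUSG00000059796, chr11:69666936-69672423 in mm10), the main eIF4A helicase gene, was read almost entirely from S129. It had 606, 629, 628 and 416 RPKM on S129 in replicates 1 to 4 and 36.4, 38.6, 38.7 and 26.1 RPKM on CAST. The alleles did not overlap in any library. Of 105654 reads, CAST had 5879, or 5.56% (exact 95% binomial interval from 5.43% to 5.70%, counting error only). The log2 difference was 4.02 (SE 0.030, adjusted p = 1.2e-06 from limma), or 16.2-fold, and ranked 60 by size among the 12869 autosomal genes. None of the 274 other genes tested within 10 Mb had a difference as large. The exons of Eif4a1 hold 2 small RNA genes on the same strand. Eif4a2 (chr16:23107444-23114136), the second helicase gene, had 158, 162, 163 and 137 RPKM on S129 and 69.6, 67.5, 72.0 and 56.6 RPKM on CAST, without overlap, and a log2 difference of 1.22 (SE 0.036, adjusted p = 3.5e-05 from limma). Its exons share bases with 6 genes on the same strand and with Rfc4 on the opposite strand.

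Eif2s2 (ENSMUSG00000074656, chr2:154871410-154892935) had 53.8, 58.9, 54.4 and 45.8 RPKM on S129 and 24.3, 24.4, 24.0 and 20.3 RPKM on CAST. Every S129 value was above every CAST value, and the log2 difference was 1.19 (SE 0.036, adjusted p = 4.0e-05 from limma). Eif1 (ENSMUSG00000035530, chr11:100319885-100322096) had 11.7, 12.3, 10.7 and 11.4 RPKM on S129 and 6.16, 6.73, 6.02 and 5.52 RPKM on CAST. Here too the alleles did not overlap, with a log2 difference of 0.91 (SE 0.048, adjusted p = 2.0e-04 from limma). Eif4e3 (ENSMUSG00000093661, chr6:99625135-99666771) was low, with 0.871, 1.24, 0.972 and 0.708 RPKM on S129 and 0.628, 0.501, 0.488 and 0.238 RPKM on CAST, from 10 to 80 reads per value. Its log2 difference was 0.92 (SE 0.16, adjusted p = 0.0076 from limma), and its exons share bases with 1 other gene on the same strand.

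Eif4g1 (ENSMUSG00000045983, chr16:20668313-20692884) had 1153, 1256, 1330 and 1123 RPKM on S129 and 657, 739, 782 and 652 RPKM on CAST. The values did not overlap and gave a log2 difference of 0.78 (SE 0.030, adjusted p = 7.4e-05 from limma). Eif4e (ENSMUSG00000028156, chr3:138526179-138559696) was higher on CAST, with 3.68, 3.26, 3.36 and 2.74 RPKM on S129 and 7.43, 7.90, 7.22 and 4.83 RPKM on CAST. Its log2 difference was -1.03 (SE 0.083, adjusted p = 6.9e-04 from limma), and the alleles did not overlap. The non-canonical Eif2a (ENSMUSG00000027810, chr3:58525821-58557501) had 16.0, 17.7, 16.8 and 13.1 RPKM on S129 and 26.3, 26.6, 28.1 and 18.3 RPKM on CAST. All CAST values were above the S129 values, with a log2 difference of -0.63 (SE 0.057, adjusted p = 9.7e-04 from limma). The exons of Eif4g1 and Eif4e share bases with 1 other gene each on the same strand, and those of Eif2a with Serp1 on the opposite strand.

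Calls of smaller size were found in most of the roles. In eIF3, Eif3b, Eif3h, Eif3k and Eif3l were higher on S129 and Eif3c, Eif3f and Eif3i on CAST, out of 12 tested. The largest of these was Eif3k with a log2 difference of 0.48 (SE 0.031, adjusted p = 3.7e-04 from limma). In eIF2B, Eif2b1 and Eif2b2 were higher on S129 and Eif2b3 on CAST, and of the kinases only Eif2ak3 differed by this test, with S129 higher. Of the 4E-binding proteins and the transporter, Eif4ebp1, Eif4ebp3 and Eif4enif1 were higher on CAST, by log2 differences of -0.31, -0.33 and -0.32. With equal autosomal sums the call of Eif4ebp3 was lost, as were those of Eif1a, Eif1ad, Eif2b3, Eif3c, Eif3f, Eif3i and Eif4g2. The sign of Eif1a turned with this scaling, from -0.096 to 0.0072. The calls of Eif2b3 and Eif3i were also lost when any 1 library was left out. Those of Eif3c and Eif4g2 were lost without replicate 1, 2 or 3, and that of Eif4ebp3 without replicate 1, 2 or 4.

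Of the other members of the paralog pairs, Eif4e2 had 229 to 263 RPKM on S129 and 179 to 201 RPKM on CAST. The alleles did not overlap, and the log2 difference was 0.33 (SE 0.035, adjusted p = 0.0017 from limma). Eif5a2 had 3.87 to 5.13 RPKM on S129 and 3.39 to 4.46 RPKM on CAST, which overlapped, but S129 was higher within 4 of 4 libraries, by 0.21 (SE 0.030, adjusted p = 0.0041 from limma). Eif1a was lower on S129 in 4 of 4 libraries, by a log2 difference of -0.096 (SE 0.029, adjusted p = 0.041 from limma), and its call was lost when any 1 library was left out (adjusted p from 0.074 to 0.13). The differences of Eif1b (0.32, SE 0.11, adjusted p = 0.056), Eif5a (0.27, SE 0.097, adjusted p = 0.070) and Eif4ebp2 (0.14, SE 0.064, adjusted p = 0.12) missed the threshold in limma, with S129 higher in 3 of 4 libraries each. Eif1b passed it without replicate 1 (0.43, adjusted p = 0.019) and Eif5a without replicate 2 (0.37, adjusted p = 0.020), and all 3 passed it with equal autosomal sums. Eif4g3 had a difference of -0.036 (SE 0.062, adjusted p = 0.64 from limma).

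Allele differences in F123-ESCs were shared by whole stretches of some chromosomes, so each autosomal gene was also set against the median difference of the other genes within 10 Mb. After this local centring, 27 of the 48 initiation factor genes departed from their neighbours (56.9% of the autosomal genes). Relative to the neighbours, S129 was higher for 18 (28.4%) and CAST for 9 (28.5%). A call after centring therefore does not say which allele of a gene is higher. Calls made both ways numbered 25, while 5 were made only before and 2 only after centring. Of the 25, 1 had the opposite sign after centring, that of Eif2a. When replicates 1 to 4 were left out in turn, the count with CAST higher was 4, 4, 5 and 5. Over all autosomal genes this count was 2925, 2861, 2892 and 3407, in place of 3670. Departures of at least 1.5-fold from the neighbours were found for 5 genes (21.6% of the autosomal genes). Relative to the neighbours, S129 was higher for Eif4a1, Eif2s2, Eif1 and Eif4e3 (11.3%), and CAST for Eif2b5 (10.2%). The alleles of Eif2b5 themselves differed by only -0.13 before centring (adjusted p = 0.060 from limma). Centred log2 differences were 4.08 for Eif4a1 (SE 0.031), 1.22 for Eif2s2 (SE 0.043), 0.87 for Eif1 (SE 0.048) and 0.67 for Eif4e3 (SE 0.16), with adjusted p = 3.3e-05, 1.3e-04, 3.7e-04 and 0.024 from limma. The centred call of Eif4e3 was lost without replicate 2 (adjusted p = 0.084), replicate 3 (0.071) or replicate 4 (0.070).

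**Figure D4:**
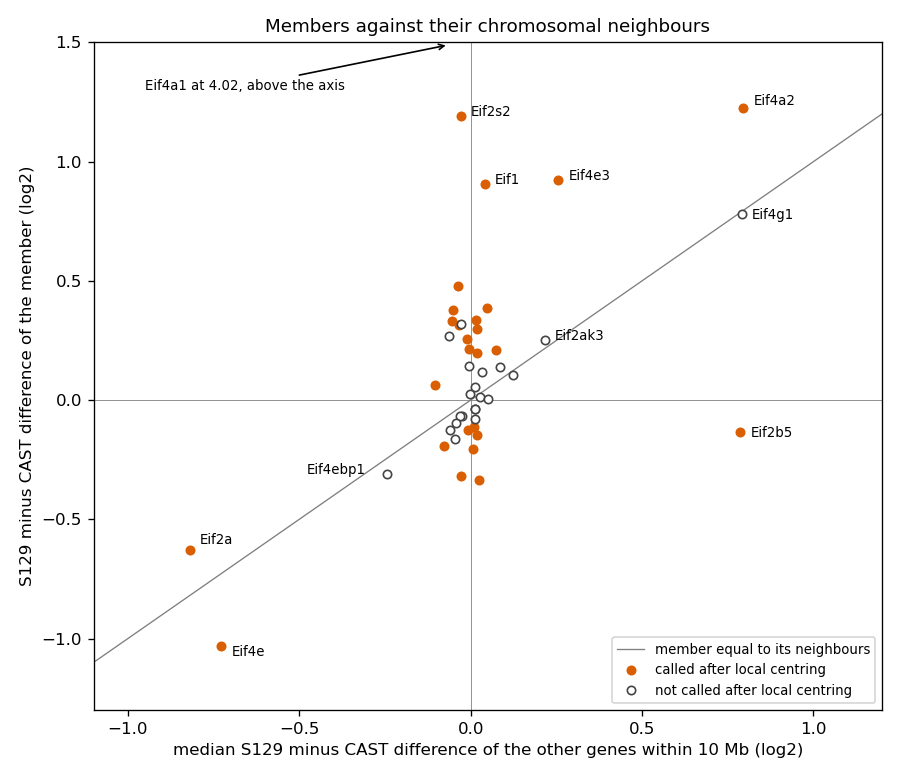
Difference between the alleles of each autosomal initiation factor gene (vertical axis, log2) against the median difference of the other genes within 10 Mb (horizontal axis, log2). Filled points were called after local centring, and the line marks genes equal to their neighbours. Eif4g1, Eif2ak3 and Eif4ebp1 lie close to the line, Eif2b5 lies far below it, and Eif4a1 at 4.02 lies above the axis.

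On chromosome 16, where the neighbours of 3 initiation factor genes were mostly higher on S129, these genes behaved differently. The neighbourhood medians were 0.79 for Eif2b5 and Eif4g1 and 0.80 for Eif4a2, and 139 of the 153 neighbours of Eif4g1 had S129 higher. Eif4g1 was close to the median of its neighbours, with a centred difference of -0.010 (SE 0.031, adjusted p = 0.80 from limma). The value turned positive, and S129 was called higher, with a pseudocount of 1 (0.098, adjusted p = 0.040) and with the whole chromosome as neighbours (0.10, adjusted p = 0.038). It was also positive without the filter (0.057, adjusted p = 0.33) and with neighbours within 5 Mb (0.041, adjusted p = 0.33). Eif4a2 was still higher on S129, by 0.43 (SE 0.037, adjusted p = 0.0012 from limma). Eif2b5 (ENSMUSG00000003235, chr16:20498817-20509323), the catalytic subunit of eIF2B, had 24.9, 26.9, 26.1 and 17.9 RPKM on S129 and 29.6, 28.8, 28.6 and 18.5 RPKM on CAST. These values overlapped and differed by -0.13 (SE 0.046, adjusted p = 0.060 from limma), whereas its centred difference was -0.92 (SE 0.047, adjusted p = 3.2e-04 from limma). A difference as large as that of Eif2b5 was found in 148 of its 152 neighbours, and 139 of the 152 had S129 higher.

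On chromosome 3, the neighbours of Eif4e and Eif2a were mostly higher on CAST, with neighbourhood medians of -0.73 and -0.82. CAST was higher for 68 of 82 neighbours of Eif4e and for 59 of 66 neighbours of Eif2a. The centred difference of Eif4e was -0.30 (SE 0.093, adjusted p = 0.047 from limma), and its call was lost without replicate 1 (adjusted p = 0.12), replicate 2 (0.12) or replicate 3 (0.14). That of Eif2a turned to 0.19 (SE 0.058, adjusted p = 0.047 from limma), with S129 higher relative to the neighbours in 4 of 4 libraries. Its call was lost when any 1 of the 4 libraries was left out (adjusted p from 0.075 to 0.14), and with neighbours within 5 Mb the value was 0.049 (adjusted p = 0.47). Eif4ebp1 on chromosome 8 went from -0.31 to -0.066 (adjusted p = 0.13 from limma) beside a neighbourhood median of -0.25. Eif2ak3 on chromosome 6 went from 0.25 to 0.034 (adjusted p = 0.53 from limma) beside a median of 0.22. What the alleles of these stretches differ in was not tested.

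The X-linked genes were read from the maternal S129 chromosome, the only X of this male line. Eif1ax (chrX:159372178-159389928) had 93.7, 85.2, 87.3 and 81.0 RPKM on S129, with 1 to 4 CAST reads per library and 10 CAST reads of 43644 in all (0.0229%; exact 95% binomial interval from 0.0110% to 0.0421%). Eif2s3x (chrX:94188707-94212862) had 46.7, 50.8, 49.3 and 41.4 RPKM on S129, with 15 CAST reads of 16716 (0.0897%; interval from 0.0502% to 0.148%). Eif2c5 had 0 CAST reads of 23, which allows a CAST share of up to 14.8% (exact 95% interval). Over 506 X-linked genes the share of CAST reads was 0.111% to 0.131% per library, beside the 5.56% of Eif4a1.

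The 4 libraries did not give the same levels. Replicate 4, which had the fewest reads, was the lowest of the 4 for 33 of 49 initiation factor genes with at least 1 RPKM, and replicate 2 was the highest for 24. The deviation from the mean of the libraries moved with the length behind the RPKM. Over the 49 genes, Spearman's correlation with length was -0.048, 0.42, 0.38 and -0.43 in replicates 1 to 4. Over all 12012 genes with such a value it was -0.18, 0.20, 0.35 and -0.26. These correlations are across genes, which are not independent replicates. In replicate 4 the median deviation was -0.035 (log2) in the genes of up to 1590 bp and -0.16 in those of at least 3186 bp. The median SD of the log2 level over the libraries was 0.13 for the initiation factor genes as for all genes. The part of read depth in these deviations was not tested. Allele differences within a library could be steady where levels were not. That of Eif4a1 ran from 3.99 to 4.05, while its level was 221 RPKM in replicate 4 and 321 to 334 RPKM in the others.

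**Figure D5:**
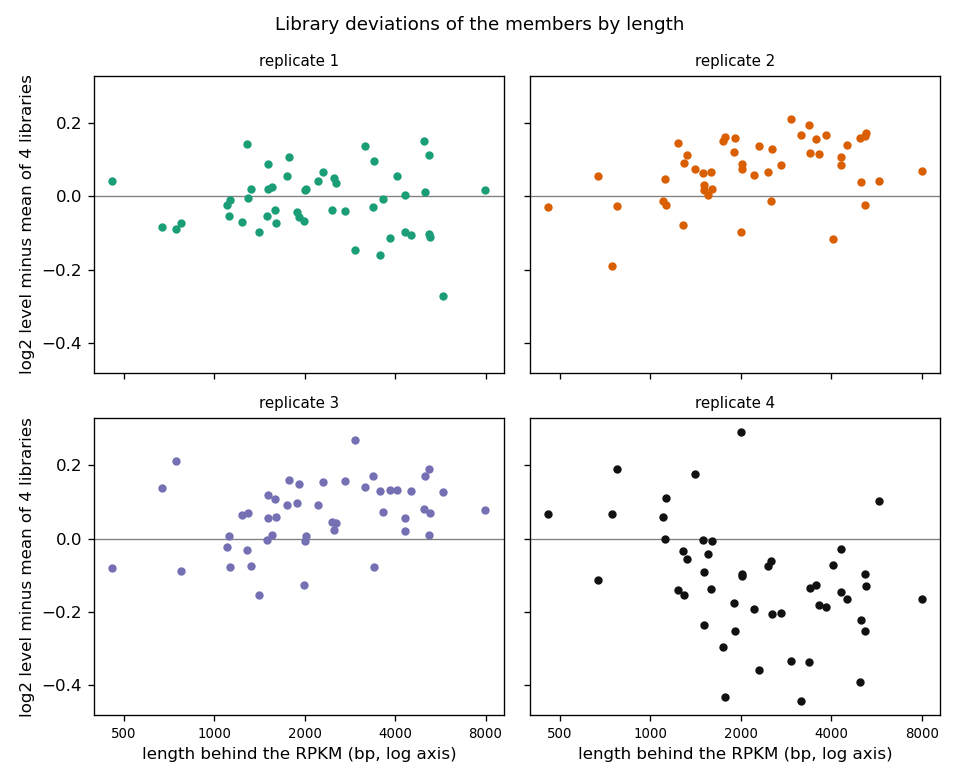
Deviation of the log2 level of 49 initiation factor genes from the mean of the 4 libraries, against the length behind the RPKM (bp, log axis), with a panel for each replicate. In replicate 4 most genes lie below 0, down to -0.44 for Eif2b5, and in replicates 2 and 3 most lie above it.

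Other genes of translation and its control were taken from a list of 34 symbols, of which 33 were found and 30 autosomal ones were tested. S129 was higher for 4 of them and CAST for 9, beside 28.9% and 32.5% of the autosomal genes. After local centring, and relative to the neighbours, the counts were 5 and 9, beside 28.4% and 28.5% of the autosomal genes. Eef1g, a subunit of the elongation factor that reloads eEF1A, had a log2 difference of 0.86, and Denr, a reinitiation factor, one of 0.52. Paip1, which binds the poly(A)-binding protein, had -0.52 and Eef1b2 -0.39. Atf4, the transcription factor translated when eIF2 is phosphorylated, had -0.29 (adjusted p of at most 0.0032 from limma for Eef1g, Denr, Paip1, Eef1b2 and Atf4). Gspt1, the release factor eRF3a on chromosome 16, went from 0.75 to -0.020 after centring. The median level of the list was 42.6 RPKM.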

How the data were processed

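Ribosomal RNA reads were removed by the authors, who then trimmed with Trimmomatic 0.40, aligned with STAR to mm10 masked at strain SNPs and divided reads into alleles with SNPsplit. They deposited RPKM per gene, allele and library, the average RPKM of each allele, and log10 of the average RPKM plus 1. The averages and log10 values were not used. The counter and annotation are not given in the sources used here. No column belonged to another sample.

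Of 24026 genes, 23995 had their Ensembl identifier in GENCODE M21 (mm10). Whole reads in all columns above 0, within 0.02 reads and an allowance for rounding, were recovered for 20134 of the 20243 genes above 0 (99.5%). For 41 initiation factor genes the first listed transcript gave the length, for 5 another transcript, and for 6 a length between 50 and 30000 bp that made the values whole, so that reads of these 6 are the fewest possible. A level is the mean of both alleles, or S129 alone for genes on X or Y, and then the mean of the 4 libraries.

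Alleles were compared by limma (3.58.1, R 4.3.3) on the within-library difference of log2(RPKM+0.1), on which changes of low genes are understated, for 13341 genes with a summed mean of at least 1 RPKM. Benjamini-Hochberg adjustment ran over all genes tested. The columns of a library were paired by the number in their names, as reads of the same cells. Deviations from the allele means correlated at 0.11 to 0.20 for columns of the same number and at -0.16 to 0.15 otherwise, over 12869 genes. These ranges overlap, so the pairing rests on the column numbers alone. Local centring used genes starting within 10 Mb, at least 10 of them. Pairs of paralogs were compared by an exact sign-flip test in scipy 1.17.1. The limma fits and the read recovery were tested on simulated data.

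All 56 members could be named; allele differences are given in full for those past adjusted p of 0.05 and 1.5-fold, on X or Y, or in a pair of paralogs. The members, lists and tests were chosen with earlier results of these data known. Intervals cover counting error only. Alternatives were another pseudocount, filter, scaling, length, window, a variance trend, no replicate block, single alleles and each library left out. Setting the autosomal median to 0 and scaling by autosomal reads were added after seeing the data.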

Additional observations from a re-analysis of the deposited data

Results flagged for a closer look

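Of 98 quantities examined (level and allele difference of 49 initiation factor genes), 7 had a library farther from the other 3 than Dixon's criterion allows. Chance alone gives about 1 in 20, or 4.9. All 5 levels were those of replicate 4. Eif4ebp1 was higher there, at 557 RPKM (417 to 434 in the others), as was Eif3g at 422 RPKM (398 to 401). Lower in replicate 4 were Eif4a1 at 221 RPKM (321 to 334), Eif2b5 at 18.2 RPKM (27.3 to 27.9) and Eif4e at 3.79 RPKM (5.29 to 5.58). The allele difference of Eif2s1 in replicate 4 was -0.34 (0.0041 to 0.055 in the others), and that of Eif3d in replicate 2 was -0.056 (-0.032 to -0.028). The part of read depth and of the length effect of replicate 4 in these values was not tested.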

How the results depend on the processing

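The counts of initiation factor genes with S129 higher stayed within 1.5 times the reported 20 before and 18 after local centring under every alternative computed. The count with CAST higher, reported as 12, was 7 with no filter on low values, 4 with equal autosomal sums, 7 with autosomal reads as the scale and 6 to 8 with a library left out. After centring, reported as 9, it was 4 to 5 with a library left out. Over all autosomal genes, the CAST calls with a library left out were 3379 to 3947 before centring (4180 in the main fit). After centring they were 2861 to 3407 (3670 in the main fit). Before centring they were 4167 with no filter, 3071 with equal autosomal sums and 3724 with autosomal reads. With no replicate block, the alleles were not paired by library. The counts of initiation factor genes were then 16 and 4 before centring and 12 and 2 after it. Of the 32 and 27 calls of the main fits, 19 and 13 were shared. Over all autosomal genes, S129 and CAST were higher in 2825 and 3132 calls before centring and in 2657 and 2590 after it. In the main fits these were 3721 and 4180 before and 3651 and 3670 after centring. Of the 227 allele differences of named genes recomputed, 200 kept their direction and side of the threshold, 10 lost their call, 13 gained a call and 4 turned sign. Of 186 centred differences, 143 kept both, 24 lost a call, 14 gained one and 5 turned. The differences that turned were those of Eif1a with equal autosomal sums (0.0072), Eif4g3 with equal autosomal sums (0.066), autosomal reads (0.0066) and without replicate 3 (range over the left-out libraries from -0.074 to 0.017, and after centring from -0.092 to 0.0032), and Eif4g1 after centring with a pseudocount of 1 (0.098), no filter (0.057), neighbours within 5 Mb (0.041) and the whole chromosome (0.10). Eif4g1 passed the threshold in 2 of these, with adjusted p = 0.040 and 0.038 for the pseudocount and the whole chromosome. Eif5a minus Eif5a2 ran from -0.18 to 0.057 with a library left out and was -0.78 with exon lengths. The cause was not tested. The other 55 values of the paralog pairs kept their direction. The median level over the genes, 33.7 RPKM, was 21.2 RPKM with exon lengths as the mean of the library medians (21.4 RPKM as the median of the means over libraries), 39.3 RPKM for S129 alone and 27.0 RPKM for CAST alone. Depth limits Eif4e3, Eif4e1b and Eif2c5, with 348, 29 and 23 reads in all, more than the other genes above 0.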
